A study of Mus musculus with 12 samples.

Results

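The genes described here are 8 transcriptional repressors of the circadian clock, taken by name from the raw count table of 54134 genes: *Per1*, *Per2* and *Per3* (Period), *Cry1* and *Cry2* (cryptochrome), *Ciart*, *Bhlhe40* and *Bhlhe41*. All 8 passed the filter on low counts and were among the 15585 genes tested. RNA-seq was performed on inguinal white adipose tissue (iWAT), a subcutaneous fat pad, from 12 male C57BL/6J mice. Each mouse had been injected through the tail vein at 8 weeks of age with an adeno-associated virus (AAV) that drove either green fluorescent protein (AAV-GFP, n = 6) or mouse *Notum* (AAV-Notum, n = 6) from a liver-specific promoter, human thyroxine binding globulin. NOTUM is a secreted enzyme that inactivates Wnt ligands. Both groups carried a virus, were kept on chow for 4 weeks and were fasted for 4 h before the fat was collected. The labels do not give the hour of collection for single mice, and its part in the values below was not tested.

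In the clock, the activators CLOCK and BMAL1 (encoded by *Arntl*) bind E-box sequences and switch on the *Per* and *Cry* genes. PER and CRY proteins then form complexes that enter the nucleus and silence CLOCK:BMAL1, so each protein limits its own gene. CIART (also called CHRONO) binds BMAL1 and adds to this repression, while BHLHE40 and BHLHE41 (DEC1 and DEC2) compete for the E-boxes themselves. REV-ERB and ROR receptors set the rhythm of *Arntl*, and PAR bZIP factors such as DBP act through D-boxes. Adipocytes run this loop, and the abundance of its transcripts swings over the day.

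The promoters of the members are shown because clock factors are known to act through motifs in such sequences. The sequences are from RefSeq on GRCm38.p6 and run 5′ to 3′ from 250 bases before to 50 bases after the annotated start site. Of the 8 genes, 6 matched the RefSeq promoter table, *Per1* with more than 1 start site, and *Per2* and *Bhlhe40* had no entry. *Per1* and *Per3* are printed as the paralogs of *Per2*, *Ciart* as the member with the highest r to *Per2* over all 12 mice with the group means removed, and *Cry1* as the member with the lowest. Capitals mark the E-box CACGTG, its variant CACGTT, which reads AACGTG on the other strand, and the D-box TTATGNAA (TTNCATAA on the other strand).
Per1, chr11:69098699-69098998, plus strand: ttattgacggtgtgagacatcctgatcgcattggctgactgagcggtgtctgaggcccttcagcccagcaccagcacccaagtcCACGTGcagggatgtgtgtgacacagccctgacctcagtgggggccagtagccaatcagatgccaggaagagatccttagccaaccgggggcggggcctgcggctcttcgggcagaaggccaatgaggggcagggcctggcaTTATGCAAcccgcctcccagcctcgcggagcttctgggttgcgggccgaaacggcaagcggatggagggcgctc
Per3, chr4:151044616-151044915, minus strand: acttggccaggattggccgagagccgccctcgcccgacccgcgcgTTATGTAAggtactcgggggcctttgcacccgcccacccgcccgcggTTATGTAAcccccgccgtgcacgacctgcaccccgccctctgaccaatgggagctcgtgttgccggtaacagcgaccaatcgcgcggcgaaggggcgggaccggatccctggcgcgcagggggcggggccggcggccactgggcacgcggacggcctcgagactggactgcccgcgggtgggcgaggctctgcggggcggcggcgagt
Ciart, chr3:95882179-95882478, minus strand: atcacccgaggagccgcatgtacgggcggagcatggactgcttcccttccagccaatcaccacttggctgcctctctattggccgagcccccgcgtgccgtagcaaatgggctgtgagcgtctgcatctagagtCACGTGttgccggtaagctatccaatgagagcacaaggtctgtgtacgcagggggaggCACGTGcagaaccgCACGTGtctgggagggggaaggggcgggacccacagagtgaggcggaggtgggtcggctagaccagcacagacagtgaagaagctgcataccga
Cry1, chr10:85185005-85185304, minus strand: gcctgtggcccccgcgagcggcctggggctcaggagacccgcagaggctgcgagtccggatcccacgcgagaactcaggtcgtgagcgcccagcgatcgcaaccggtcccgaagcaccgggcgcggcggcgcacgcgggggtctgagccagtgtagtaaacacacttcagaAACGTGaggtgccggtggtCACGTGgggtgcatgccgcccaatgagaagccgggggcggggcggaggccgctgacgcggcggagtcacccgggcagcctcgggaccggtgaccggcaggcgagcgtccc

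The E-box was present in the promoters of *Per1*, *Ciart*, *Cry1* and *Bhlhe41*, 4 of the 6 members (4 of their 7 promoters), and in 7.15% of all 32851 promoters in the table. *Ciart* held 3 copies, at -116, -58 and -44 from the start site, and only 29 promoters in the table (0.0883%) held 3 or more. *Per3* carried no E-box in this window but 2 D-boxes, at -205 and -158, a number reached by 0.161% of all promoters. *Per1* had an E-box at -166 and a D-box at -24 at its upstream start site, and 0 matches at the other start site (chr11:69099902-69100201). The D-box occurred in 3.38% of all promoters. The variant E-box was found in *Cry1* and *Cry2* and in 4.68% of promoters. The cAMP response element TGACGTCA, searched as a whole, was in 0 of the 6 members and in 1.79% of promoters. None of the matches printed overlaps another, and a match is a string of letters, not evidence that a factor binds there.

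Library totals ran from 15266635 to 21618860 counts in AAV-GFP and from 14711113 to 17838229 in AAV-Notum (exact permutation test of the means, two-sided, p = 0.279). All 7 adipocyte markers were detected, with summed levels (in CPM, counts scaled to a common library size) of 33290 to 57500 CPM in AAV-GFP and 30280 to 71000 CPM in AAV-Notum. The summed level of 15 B and T cell markers was 15.3, 27.5 and 399 CPM in AAV-GFP-2014, AAV-GFP-2011 and AAV-GFP-2012, against 1424 to 1960 CPM in the other AAV-GFP mice and 638 to 2805 CPM in AAV-Notum. All 15 of these markers had a positive fold change (0 at an unadjusted p under 0.05 with edgeR). The 8 hepatocyte markers summed to between 45.6 and 5382 CPM in AAV-GFP and between 20.1 and 776 CPM in AAV-Notum, with a negative fold change for 8 of 8 (2 at an unadjusted p under 0.05 with edgeR). The 7 skeletal muscle markers summed to between 25.8 and 939 CPM and between 30.8 and 4248 CPM, with a positive fold change for 7 of 7 (0 at an unadjusted p under 0.05 with edgeR). Their medians ran the other way, 169.2 CPM in AAV-GFP and 61.75 CPM in AAV-Notum. AAV-Notum-2042 alone had the 4248 CPM, against 30.8 to 635 CPM in the rest of its group. RNA integrity numbers were 5.7 to 7.6 among AAV-GFP mice and 6.9 to 7.4 among AAV-Notum mice, and RNA from AAV-GFP-2012 was isolated on another day than that of the other mice. *Notum* itself was low in the fat of the AAV-GFP mice (0.0595 to 0.995 CPM) and reached 29.3 CPM in AAV-Notum-2032 and 26.6 CPM in AAV-Notum-2041, with 0.457 to 0.905 CPM in the other 4 AAV-Notum mice. The hepatocyte markers summed to 139 and 776 CPM in AAV-Notum-2032 and AAV-Notum-2041, against 20.1 to 49.3 CPM in those other 4. Their relation to *Notum* was not tested. Transcripts of the virus and of the mouse gene cannot be told apart in these counts. In bulk tissue, fewer cells of a type and less RNA per cell cannot be told apart either, and this holds for every difference that follows.

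*Per2* was lower in every AAV-Notum mouse than in any AAV-GFP mouse. *Per2* encodes a Period protein whose loss disturbs daily rhythm in mice. Its level in AAV-GFP was 40.2, 50.3, 39.0, 58.7, 49.7 and 37.3 CPM in AAV-GFP-2011, AAV-GFP-2012, AAV-GFP-2013, AAV-GFP-2014, AAV-GFP-2021 and AAV-GFP-2022. In AAV-Notum it was 19.3, 17.02, 15.8, 20.9, 18.5 and 24.0 CPM in AAV-Notum-2031, AAV-Notum-2032, AAV-Notum-2033, AAV-Notum-2034, AAV-Notum-2041 and AAV-Notum-2042. The lowest AAV-GFP mouse thus stood well above the highest AAV-Notum mouse. The means were 45.9 ± 8.40 CPM and 19.2 ± 2.91 CPM (SD, n = 6 each), a 2.38-fold lower level and a log2 fold change of -1.25 (SE 0.14, edgeR adjusted p = 0.00917 over all genes). The family was chosen by this contrast: *Per2* had the smallest p-value of the whole table, and its relatives were added by name, so the contrast is given as a description and not as an independent test. The coefficient of variation of *Per2* within a group was 18.3% in AAV-GFP and 15.1% in AAV-Notum, and its spread within groups on the log2 scale lay at the 37.3rd percentile of all genes tested. A small p-value itself favours a gene with little spread within groups, so this spread is a description as well.

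*Per1*, a paralog that acute signals can induce within the cycle, was lower on average but with groups that overlapped. AAV-GFP mice had 136, 186, 136, 200.7, 171 and 119 CPM, in the same order of mice as above. AAV-Notum mice had 107, 61.5, 85.3, 136, 79.1 and 102 CPM. The highest AAV-Notum mouse, AAV-Notum-2034, reached the level of the lower AAV-GFP mice, and the other 5 were below all of them. The means were 158 ± 32.3 CPM and 95.2 ± 25.9 CPM, with a log2 fold change of -0.73 (SE 0.19, edgeR adjusted p = 0.149).

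*Per3*, the paralog that mice can lose with little effect on rhythm, was also lower on average, with a wider spread than *Per1*. Its levels in AAV-GFP were 154, 166, 111, 183, 97.2 and 77.8 CPM. Those in AAV-Notum were 61.0, 48.4, 60.5, 64.3, 80.0 and 112 CPM. The values of 4 AAV-Notum mice lay below the AAV-GFP range, while AAV-Notum-2041 and AAV-Notum-2042 lay among the lower AAV-GFP values. The means were 131 ± 41.8 CPM and 71.1 ± 22.5 CPM, with a log2 fold change of -0.89 (SE 0.24, edgeR adjusted p = 0.160), or -0.48 with the B and T cell marker level as covariate. With DESeq2, *Per1* and *Per3* passed the threshold (adjusted p = 0.0217 and 0.0222). Under DESeq2, 2.18% of all genes were called lower.

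For the cryptochromes the fitted values had opposite signs, and the difference between them was not tested. *Cry2*, which encodes a partner of the Period proteins, had 108, 91.9, 68.6, 119, 77.2 and 49.0 CPM in AAV-GFP. It had 54.1, 49.8, 55.2, 54.4, 71.4 and 86.7 CPM in AAV-Notum. Each AAV-Notum mouse lay within the range of the AAV-GFP mice. The means were 85.5 ± 25.8 CPM and 61.9 ± 14.2 CPM, with a log2 fold change of -0.47 (SE 0.21, edgeR adjusted p = 0.343), or -0.07 with the B and T cell marker level as covariate and -0.21 when AAV-GFP-2014 and AAV-GFP-2011 were left out. *Cry1*, which encodes the stronger repressor of the pair, was much less abundant. Its levels were 5.44, 12.3, 10.8, 8.40, 11.8 and 12.6 CPM in AAV-GFP. They were 13.2, 11.8, 10.9, 12.2, 9.78 and 9.58 CPM in AAV-Notum. The groups covered much the same range, apart from the low AAV-GFP-2011 and AAV-GFP-2014. The log2 fold change of *Cry1* was 0.14 (SE 0.19, edgeR adjusted p = 0.690), and it turned to -0.13 and to -0.08 in the same fits.

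*Ciart* was the least abundant member, with 29 to 123 counts per mouse. Its levels in AAV-GFP were 4.04, 6.67, 3.51, 7.33, 5.58 and 1.91 CPM. Those in AAV-Notum were 3.61, 1.62, 1.92, 3.45, 3.63 and 5.11 CPM. The groups overlapped almost throughout, and AAV-GFP-2022 was as low as the lowest AAV-Notum mice. The fitted log2 fold change came to -0.59 (SE 0.35, edgeR adjusted p = 0.432).

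The DEC genes varied widely between mice and showed no common shift. *Bhlhe40* ranged from 37.4 to 99.5 CPM in the AAV-GFP mice (median 61.9) and from 34.7 to 110 CPM in the AAV-Notum mice (median 63.9). *Bhlhe41* ranged from 14.5 to 70.2 CPM in AAV-GFP (median 38.3) and from 19.6 to 64.2 CPM in AAV-Notum (median 33.9). The log2 fold change was 0.03 (SE 0.29, edgeR adjusted p = 0.962) for *Bhlhe40*, with values from -0.16 to 0.17 as single mice were left out, 0.50 with the B and T cell marker level as covariate and 0.39 without AAV-GFP-2014 and AAV-GFP-2011. For *Bhlhe41* it was -0.08 (SE 0.38, edgeR adjusted p = 0.923), with values from -0.28 to 0.15 as single mice were left out and 0.59 with the B and T cell marker level as covariate. The signs and sizes of both therefore depend on which mice or terms are in the fit. An annotated gene on the other strand overlaps each of *Bhlhe41*, *Cry2* and *Bhlhe40*, and these partners had at most 11, 5 and 4 counts in any mouse.

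**Figure D1:**
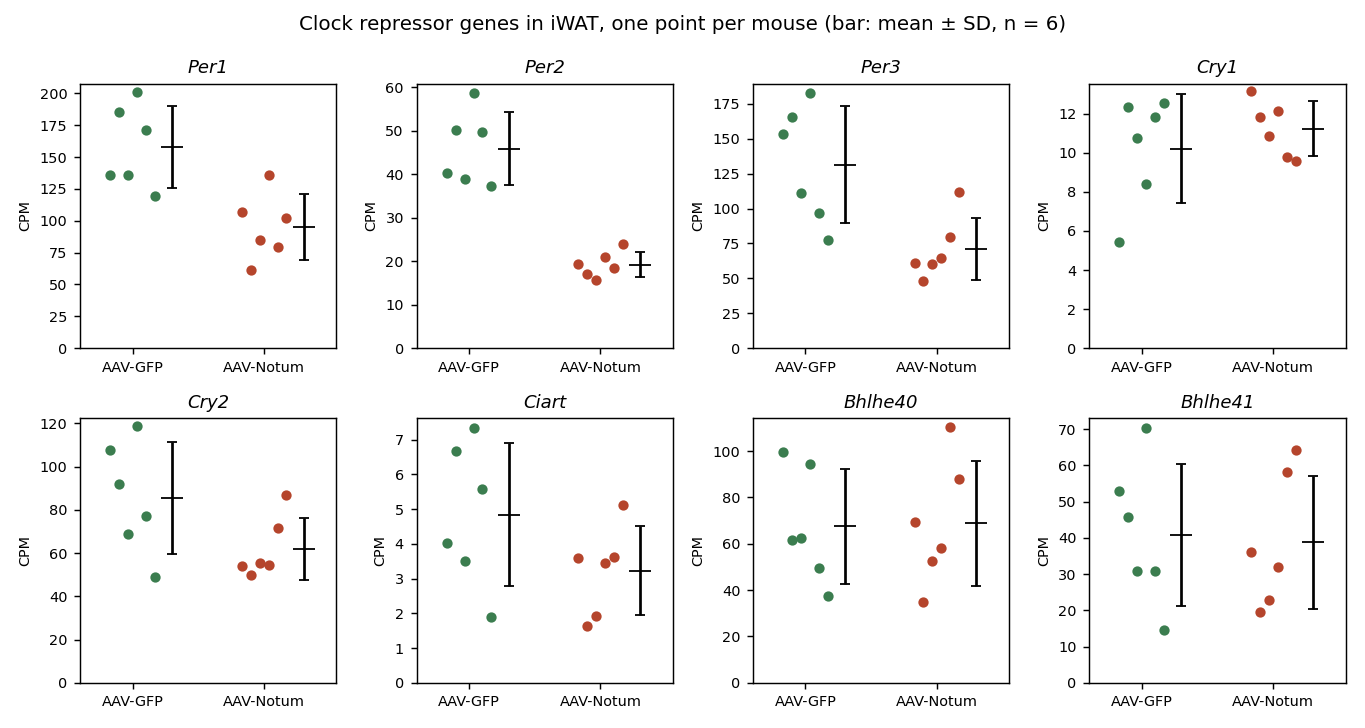
CPM of the 8 clock repressor genes in iWAT, on linear axes from 0, with 1 point per mouse and the mean ± SD (n = 6) beside each group. For *Per2* the lowest AAV-GFP mouse (37.3 CPM) lies above the highest AAV-Notum mouse (24.0 CPM), and in the other 7 panels the groups overlap.

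Of the 8 members, edgeR called 1 lower (*Per2*) at an adjusted p under 0.05, where 0.0513% of all genes tested were called lower. DESeq2 called 3 (2.18% of all genes), limma-voom called 1 (0.0385%) and limma on the normalized values called 1 (0.0257%). No member was called higher by any of these tools, nor by edgeR at an unadjusted p under 0.05 (4.64% of all genes), and 0% of all genes were called higher by edgeR and 0.482% by DESeq2. At an unadjusted p under 0.05, edgeR gave 4 members lower (*Per1*, *Per2*, *Per3* and *Cry2*), beside 9.54% of all genes. *Per2* alone had no overlap between groups, as had 0.693% of all genes in that direction. The log2 fold change was negative for 6 members and positive for 2, with a median of -0.53, against 0.01 over all genes tested, of which 48.8% were negative. The family was picked with these results known, so its counts carry no weight of their own.

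*Per2* was then set against its paralogs within each mouse. In AAV-GFP, *Per2* kept a nearly fixed distance below *Per1*: the difference of log2 CPM was -1.75, -1.88, -1.80, -1.77, -1.78 and -1.68, with a mean of -1.78 ± 0.07 (SD, n = 6). In AAV-Notum the difference was -2.46, -1.85, -2.43, -2.70, -2.09 and -2.09, with a mean of -2.27 ± 0.31. *Per2* was thus further below *Per1* in AAV-Notum, with 1 mouse, AAV-Notum-2032, inside the AAV-GFP range. The groups were 0.49 apart on this log2 scale, and between 0.40 and 0.58 with any single mouse left out. The difference between *Per2* and *Per3* was less even: it ran from -1.93 to -0.96 in AAV-GFP (mean -1.47 ± 0.38) and from -2.22 to -1.50 in AAV-Notum (mean -1.84 ± 0.29). Its groups overlapped between -1.93 and -1.50 and were 0.37 apart, or 0.27 to 0.46 with single mice left out. Since *Per2* was chosen for its own contrast, these distances were not tested. Against the other members, the mean log2 distance of *Per2* changed by -1.42 for *Cry1*, -1.26 for *Bhlhe40*, -1.19 for *Bhlhe41*, -0.81 for *Cry2* and -0.70 for *Ciart*.

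**Figure D2:**
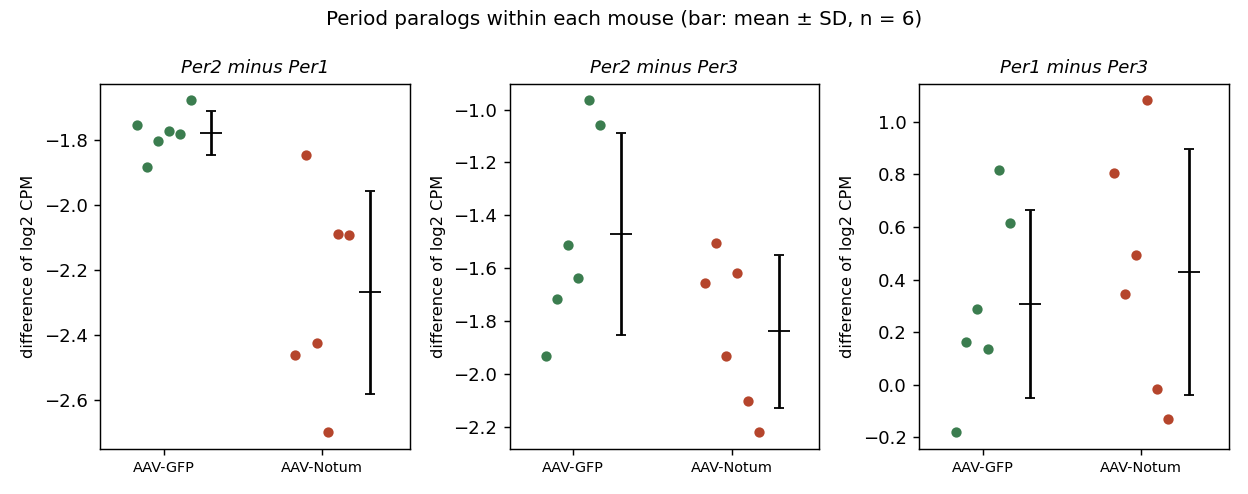
Difference of log2 CPM between Period paralogs in each mouse, with 1 point per mouse and the mean ± SD (n = 6) beside each group; the vertical axes differ between panels and do not start at 0. The *Per2* minus *Per1* difference is tightly grouped in AAV-GFP (SD 0.07) and wider and lower in AAV-Notum (SD 0.31), and the groups overlap in all 3 panels, by 1 AAV-Notum mouse in the first.

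On a scale that allows genes to be compared, RPKM, which divides the CPM by the exon length of the gene in kilobases, the order of the levels in AAV-GFP was *Per1* (28.1 ± 5.74), *Bhlhe40* (14.3 ± 5.25), *Per3* (13.7 ± 4.35), *Cry2* (13.5 ± 4.08), *Per2* (7.83 ± 1.44), *Bhlhe41* (6.08 ± 2.92), *Cry1* (3.06 ± 0.836) and *Ciart* (2.14 ± 0.909). *Per1* was clear of *Bhlhe40*, and every other pair of neighbours in this order had overlapping ranges. In AAV-Notum the order was *Per1* (16.9 ± 4.60), *Bhlhe40* (14.6 ± 5.72), *Cry2* (9.80 ± 2.25), *Per3* (7.40 ± 2.34), *Bhlhe41* (5.77 ± 2.75), *Cry1* (3.36 ± 0.421), *Per2* (3.28 ± 0.497) and *Ciart* (1.43 ± 0.566). Here *Per2* and *Ciart* were the only neighbours whose ranges did not overlap. *Per2* thus stood above *Bhlhe41* in the order of AAV-GFP and beside *Cry1* in that of AAV-Notum. This restates the contrast by which *Per2* was chosen and is not a separate result. The level of *Per1* was 3.57 ± 0.167 times that of *Per2* in AAV-GFP and 5.13 ± 1.11 times in AAV-Notum. The level of *Cry2* over *Cry1* was 5.13 ± 3.19 and 3.01 ± 1.07, and that of *Bhlhe40* over *Bhlhe41* was 2.56 ± 0.671 and 2.64 ± 0.433.

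Variation between mice of the same group does not use the contrast that chose the family, and it was tested for *Per2* against each other member in each group, 14 relations in all. Within AAV-GFP, *Per2* and *Per1* gave the highest r (r = 0.980, exact permutation p = 0.00556, adjusted p = 0.0778; rho = 0.943, exact p = 0.0167, adjusted p = 0.117), followed by *Ciart* (r = 0.905, exact permutation p = 0.0181, adjusted p = 0.117). For *Ciart* the ranks matched in all 6 AAV-GFP mice (rho = 1.0, exact permutation p = 0.00278, adjusted p = 0.0389). Without AAV-GFP-2014 and AAV-GFP-2022, the mice farthest from the median, r was 0.979 for *Per1* and 0.970 for *Ciart*. Within AAV-Notum, r was 0.883 for *Ciart* (exact permutation p = 0.025, adjusted p = 0.117; rho = 0.714, exact p = 0.136, adjusted p = 0.238), and 0.774 without the 2 mice farthest from the median. For *Per1* in AAV-Notum r was 0.618 (rho = 0.657, exact permutation p = 0.183 and 0.175, adjusted p = 0.257 and 0.272), and 0.986 without AAV-Notum-2033 and AAV-Notum-2042. Of the 14 relations, 13 had a positive r, 3 had an unadjusted p under 0.05 for r and 0 passed after adjustment of the p-values for r. *Per3*, *Cry2* and *Bhlhe41* gave r between 0.6251 and 0.763 in both groups (exact permutation p = 0.0819 to 0.161, adjusted p = 0.251 for each; rho = 0.371 to 0.829, adjusted p = 0.163 to 0.580), and in AAV-GFP r was 0.003, 0.04 and -0.06 without the 2 farthest mice. In AAV-Notum r was 0.459, 0.098 and 0.364 for the same genes without the 2 farthest mice. Leaving out those mice narrows the range of *Per2*, which alone can lower r. These values therefore cannot show what the relations rest on. *Cry1* gave r of 0.03 in AAV-GFP and -0.25 in AAV-Notum (exact permutation p = 0.940 and 0.626, adjusted p = 0.940 and 0.675), and *Bhlhe40* 0.38 and 0.52 (exact permutation p = 0.443 and 0.289, adjusted p = 0.517 and 0.368). Without the 2 farthest mice, r was 0.617 in AAV-GFP and 0.265 in AAV-Notum for *Cry1*, and -0.63 and 0.37 for *Bhlhe40*. All 6 AAV-Notum mice shared an RNA isolation day. Among the 5 AAV-GFP mice isolated on that day, r was 0.989 for *Per1*, 0.901 for *Ciart* and 0.581 to 0.664 for *Per3*, *Cry2* and *Bhlhe41*, with no test at this number of mice.

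Over all 12 mice with the group means removed, 11387 genes with a mean of at least 5 CPM were ranked by their r to *Per2*, as a description. *Fam76a* (0.894), *Dcun1d3* (0.889), *Ndfip2* (0.874), *Tmem101* (0.873) and *Ube2a* (0.855) were most like it. *Endov* (-0.866), *Nelfa* (-0.863), *Ptgir* (-0.858), *Arntl* (-0.853) and *2810021J22Rik* (-0.848) were most opposed. *Ciart*, at 0.895, lay below the level of 5 CPM in the mean and so outside this ranking. *Per1* ranked 61st from the top (0.768), *Bhlhe41* 238th (0.704), *Per3* 353rd (0.682) and *Cry2* 448th (0.670). *Bhlhe40* had an r of 0.441 and *Cry1* of -0.035. *Arntl*, the BMAL1 gene, had 9.92, 7.50, 10.9, 5.18, 10.6 and 13.7 CPM in AAV-GFP. It had 14.3, 16.8, 15.1, 11.7, 10.6 and 9.06 CPM in AAV-Notum. The lowest and highest AAV-GFP mice in *Arntl*, AAV-GFP-2014 and AAV-GFP-2022, were the highest and lowest in *Per2*, and were also the lowest and highest in B and T cell markers (15.3 and 1960 CPM). In AAV-Notum the lowest in *Arntl*, AAV-Notum-2042, was the highest in *Per2* and the lowest in B and T cell markers (638 CPM), while the highest in *Arntl*, AAV-Notum-2032, was the highest in B and T cell markers (2805 CPM) but not the lowest in *Per2*, which was AAV-Notum-2033. The part of these markers in the relation was not tested.

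**Figure D3:**
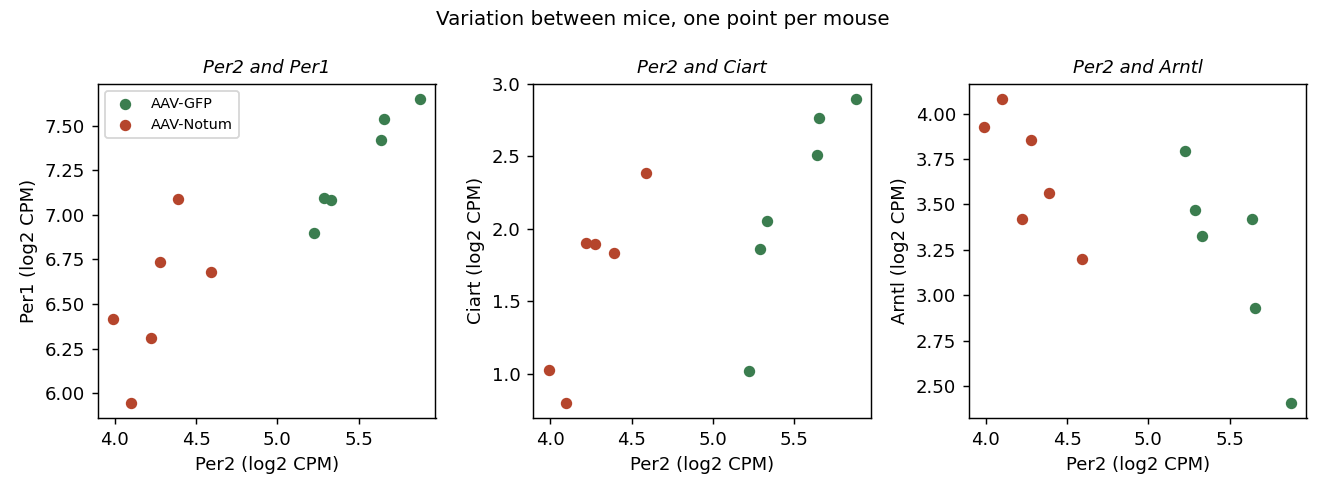
Level of *Per1*, *Ciart* and *Arntl* against that of *Per2* (log2 CPM on both axes), 1 point per mouse, coloured by group. The r to *Per2* is 0.980 for *Per1* and 0.905 for *Ciart* in AAV-GFP and 0.618 and 0.883 in AAV-Notum (the p-values for r did not pass after adjustment), and *Arntl* runs the other way (r = -0.853 over 12 mice with the group means removed).

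Inside each group, the levels of some members differed between mice low and high in B and T cell markers. In AAV-GFP, the mice AAV-GFP-2014, AAV-GFP-2011 and AAV-GFP-2012, which were low in B and T cell markers and had 51550 to 57500 CPM of adipocyte markers, had the highest *Per3* (154 to 183 CPM, against 77.8 to 111 CPM in the others). They also had the highest *Cry2* (91.9 to 119 against 49.0 to 77.2 CPM) and *Bhlhe41* (45.8 to 70.2 against 14.5 to 30.9 CPM). *Per2* was not divided in this way (40.2 to 58.7 against 37.3 to 49.7 CPM), nor was *Per1* (136 to 200.7 against 119 to 171 CPM). In AAV-Notum, the 3 mice lowest in B and T cell markers had the highest *Cry2* (55.2 to 86.7 against 49.8 to 54.4 CPM) and the lowest *Cry1* (9.58 to 10.9 against 11.8 to 13.2 CPM), and the other 6 members were not divided. These 3 mice also had more of the adipocyte markers (48050 to 71000 against 30280 to 42740 CPM). The share of all genes divided by such splits was not computed, so the divisions cannot be called particular to the members. With the B and T cell marker level as covariate, the log2 fold change was -1.13 for *Per2* (SE 0.14, edgeR adjusted p = 0.0210) and -0.61 for *Per1*. In the same fit it was -0.24 for *Ciart*, nearer to 0 than in the fit without it, as were the values given above for *Per3* and *Cry2*. Without AAV-GFP-2014 and AAV-GFP-2011 it was -1.20 for *Per2* (adjusted p = 0.0390), -0.69 for *Per1* and -0.67 for *Per3*. The median of the 8 members was then -0.34, and edgeR called 1 member lower.

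The other limbs of the clock were read in the same fit. Of 12 genes for activators, REV-ERB, ROR and PAR bZIP factors, 11 could be tested and *Rorb* was too low, with 3 to 16 counts per mouse. Of the 11, 10 had a negative fold change with a median over the 11 of -0.24 (8 of 11 and -0.11 without AAV-GFP-2014 and AAV-GFP-2011), and 0 passed the adjusted threshold with edgeR, DESeq2 or limma. At an unadjusted p under 0.05, edgeR gave 2 lower and 0 higher, beside 9.54% and 4.64% of all genes. The 2 were *Tef*, a PAR bZIP factor (268 ± 48.9 and 197 ± 64.9 CPM, log2 fold change -0.44), and *Nr1d2*, which encodes REV-ERBβ (94.0 ± 18.4 and 69.7 ± 18.7 CPM, log2 fold change -0.43). Both groups overlapped for each of them. *Arntl* had the highest fold change of this list in this fit (9.64 ± 2.96 and 12.9 ± 2.96 CPM, log2 fold change 0.42, SE 0.22, edgeR adjusted p = 0.397). *Rora*, for a ROR receptor, had -0.37, *Nr1d1*, for REV-ERBα, -0.31, *Dbp* -0.28 and *Hlf* -0.24. *Clock* had -0.15, *Arntl2* -0.13, *Nfil3*, for a D-box repressor, -0.04 and *Npas2*, a stand-in for *Clock*, -0.03. As single mice were left out, *Hlf* ran from -0.50 to -0.12, *Dbp* from -0.47 to -0.16, *Nr1d1* from -0.42 to -0.17 and *Arntl2* from -0.32 to -0.03. With the B and T cell marker level as covariate, the signs of *Nr1d1* (0.23), *Dbp* (0.05), *Arntl2* (0.19) and *Npas2* (0.31) turned positive. In the same fit *Arntl* had 0.14, below *Npas2*, *Nr1d1* and *Arntl2*, while *Nr1d2* had -0.23, *Tef* -0.24 and *Rora* -0.13. Without AAV-GFP-2014 and AAV-GFP-2011, *Arntl* had 0.28.

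**Figure D4:**
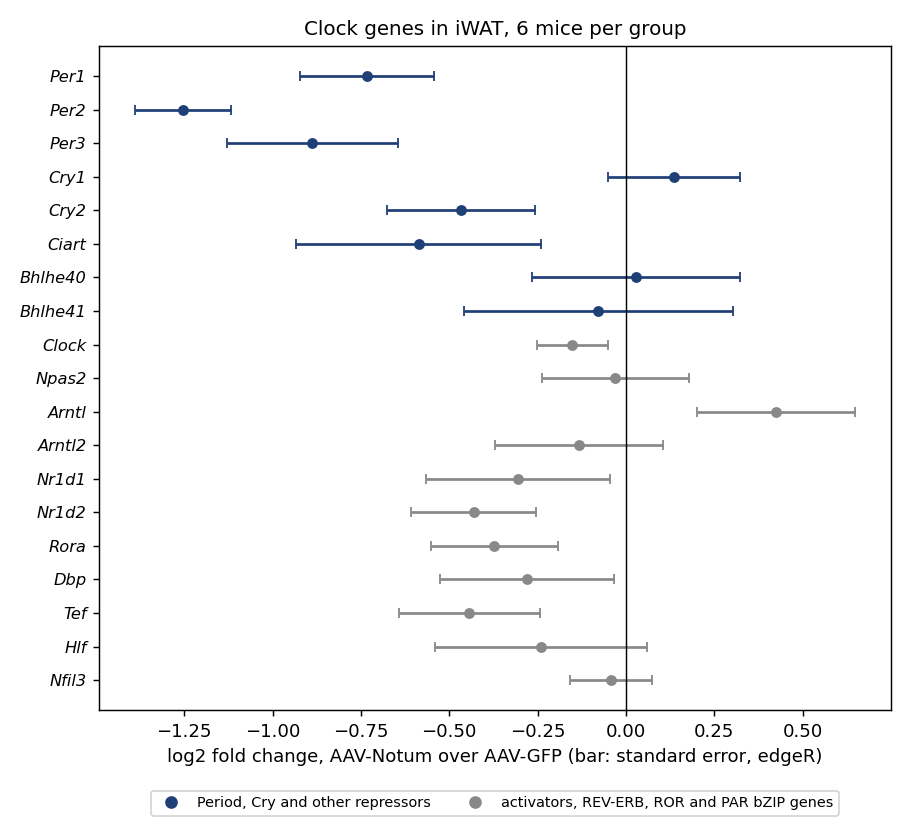
Log2 fold change (AAV-Notum over AAV-GFP, edgeR) of the 8 repressors and the 11 tested activator, REV-ERB, ROR and PAR bZIP genes, with the standard error as bars and 6 mice per group. *Per2* (-1.25), *Per3* (-0.89) and *Per1* (-0.73) lie furthest to the left, and *Arntl* (0.42) furthest to the right.

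PER and CRY proteins are acted on by kinases such as the casein kinases, by ubiquitin ligases that mark them for breakdown, and by partner proteins. The list of 13 such genes held kinases, ligases and the deubiquitinase gene *Usp2*, together with *Timeless*, *Nono*, *Sfpq* and *Wdr5*, which encode partners and not enzymes of breakdown. Of the 13, 8 had a negative and 5 a positive fold change, with a median of -0.04. None passed the adjusted threshold with edgeR, DESeq2 or limma (0 of 13), and at an unadjusted p under 0.05 edgeR gave 0 lower and 1 higher (*Nono*, an RNA-binding partner of PER, 0.21, named here after its value was seen), beside 9.54% and 4.64% of all genes. The range ran from *Csnk1e*, a casein kinase that phosphorylates PER (-0.24, and 0.01 with the B and T cell marker level as covariate), to *Timeless* (0.50, and 0.12 with that covariate).

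*Per1* and *Per2* are also known as direct targets of the glucocorticoid receptor and of immediate early signalling. Of 10 glucocorticoid target genes, 10 had a negative fold change with a median of -0.57, from *Sgk1*, a kinase (-0.43), to *Errfi1*, an inhibitor of EGF receptor signalling (-1.17). With edgeR 0 of them passed the adjusted threshold and 7 had an unadjusted p under 0.05, all lower, where 9.54% of all genes were lower by that rule. DESeq2 called 3 of the 10 lower, beside 2.18% of all genes. Of 10 immediate early genes, *Egr2* was too low to test, and the other 9 had a median of 0.26 (0.09 without AAV-GFP-2014 and AAV-GFP-2011), with 4 negative and 5 positive fold changes. They ran from *Jun*, an AP-1 subunit (52.0 ± 16.7 and 28.3 ± 4.14 CPM, log2 fold change -0.88), to *Egr1*, a zinc finger factor (26.0 ± 5.42 and 38.1 ± 11.4 CPM, log2 fold change 0.55). With edgeR 0 of the 9 passed the adjusted threshold and 1 in each direction had an unadjusted p under 0.05, and DESeq2 called 1, *Jun*. The groups did not overlap for *Jun*, as for 0.693% of all genes, and its log2 fold change was -0.47 with the B and T cell marker level as covariate and -0.57 without AAV-GFP-2014 and AAV-GFP-2011. These lists were compiled with earlier results of the same mice known, and whether they moved with the Period genes was not tested.

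By position, the members are spread over the genome (GRCm38, Ensembl gene models): *Per1* at chr11:69095217-69109960 (ENSMUSG00000020893), *Per2* at chr1:91415982-91459324 (ENSMUSG00000055866), *Per3* at chr4:151003652-151044665 (ENSMUSG00000028957), *Cry1* at chr10:85131700-85185064 (ENSMUSG00000020038), *Cry2* at chr2:92403646-92434043 (ENSMUSG00000068742) and *Ciart* at chr3:95878503-95882251 (ENSMUSG00000038550). *Bhlhe40* (chr6:108660629-108666925, ENSMUSG00000030103) and *Bhlhe41* (chr6:145858243-145865558, ENSMUSG00000030256) share a chromosome. *Per1* and *Bhlhe40* are on the plus strand and the others on the minus strand.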

How the data were processed

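Total RNA from iWAT of 12 mice was sequenced. The authors aligned the reads to mm10 with STAR 2.3.1; the counting program is not given in the sources used here. The authors deposited whole-number counts per gene and a table of log2(x + 1) values, where x is the count after scaling by each library's size factor. The deposited log2 values were undone to whole reads (100% of values up to 2000 reads, tolerance 0.1). They equalled the counts in all mice for 6725 of 31137 shared genes, and for the members the totals differed most for *Bhlhe41* (79.0% of the count table) and *Ciart* (125.9%).

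The counts were tested with edgeR 4.0.16 (R 4.3.3; TMM, filterByExpr with a minimum of 10 counts and 15 in total, glmQLFit and glmQLFTest, Benjamini-Hochberg over 15585 genes). The scripts were tested on simulated data. CPM used TMM library sizes; log2 CPM had a prior count of 2. RPKM used the merged exon length. Alternatives were DESeq2 1.42.0 (the tool the authors named), limma 3.58.1 on voom and on the deposited log2 values, other filters and scalings, covariates and omitted mice. Promoter motifs were searched on both strands. Named genes were the 8 members, the activator list, the extremes of 3 other lists, and the 5 genes most and least like *Per2*. A gene of the activator list and a gene of the turnover list are not reported here, and the counts given for these lists leave them out. The members and lists were chosen with earlier results of these data known. Cell type marker lists were used for adipocytes, B and T cells, hepatocytes and muscle.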

Additional observations from a re-analysis of the deposited data

Results flagged for a closer look

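In 68 sets of 6 mice (each tested member, activator gene, extreme gene of the other lists and *Notum*, the *Per2* ratios to *Per1* and *Per3*, and each library measure, in each group), 3 had a mouse far from the others by Dixon's test, where chance alone would pass about 3.4. All 3 were levels of other tissues' markers and none was a clock gene. The summed hepatocyte markers were 5382 CPM in AAV-GFP-2013, against 45.6 to 1428 CPM in the rest of its group. They were 775.8 CPM in AAV-Notum-2041, against 20.1 to 139 CPM in the other AAV-Notum mice. The summed muscle markers were 4248 CPM in AAV-Notum-2042, against 30.8 to 635 CPM in the rest of its group. For *Per2*, the log2 fold change was -1.30, -1.24 and -1.33 without each of these mice in turn.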

How the results depend on the processing

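*Per2* kept its direction and an adjusted p under 0.05 in all 23 other fits, with a log2 fold change of -1.33 to -1.17 as single mice were left out and -1.26 to -1.13 otherwise; the highest adjusted p was 0.0474. The count of members called lower was 1 in each fit except DESeq2 (3), and the count called higher was 0. *Per2* minus *Per1* ran from -0.58 to -0.40 and *Per2* minus *Per3* from -0.46 to -0.27 as single mice were left out. Over all genes, edgeR called 8 lower and 0 higher, DESeq2 357 and 79, RLE size factors 13 and 1, a filter of 10 counts in every mouse 14 and 1, a filter of 1 count in all 5 and 0, recovered reads 10 and 1, limma on the normalized values 4 and 0, the B and T cell marker covariate 4 and 0, and the fit without AAV-GFP-2014 and AAV-GFP-2011 1 and 0. Leaving out single mice gave 1 to 146 lower and 0 to 12 higher, the most without AAV-GFP-2022.

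Signs turned with the B and T cell marker covariate for *Cry1* (-0.13), *Bhlhe41* (0.59), *Npas2* (0.31), *Arntl2* (0.19), *Nr1d1* (0.23), *Dbp* (0.052) and *Csnk1e* (0.013). They turned without AAV-GFP-2014 and AAV-GFP-2011 for *Cry1* (-0.079), *Bhlhe41* (0.34), *Npas2* (0.25) and *Arntl2* (0.0067). With the RNA integrity number as covariate *Bhlhe41* was 0.18 and *Npas2* 0.15, and *Npas2* was 0.024 by limma-voom and 0.011 on the normalized values. As single mice were left out, *Bhlhe40* ran from -0.16 to 0.17, *Bhlhe41* from -0.28 to 0.15, *Npas2* from -0.13 to 0.16 and *Nfil3* from -0.077 to 0.015. The *Per2* and *Cry1* correlation in AAV-GFP was -0.022 on the normalized values. It was -0.074 without AAV-GFP-2012, the mouse of another RNA isolation day, a setting added after seeing the data. The cause was not tested in any of these cases. No paired analysis was possible because the groups share no replicate numbers.

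*Ciart* had 29 counts in its lowest mouse, the fewest of the members. The other members had at least 97 counts in every mouse.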
